A study of Mus musculus with 2 samples.

Results

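The metalloproteases considered here are the matrix metalloproteases (Mmp), the ADAM and ADAMTS proteases, the ADAMTS-like proteins and the tissue inhibitors of metalloproteases (Timp). Members were all probe sets whose annotation gave exactly 1 gene symbol made of one of these names followed directly by a number. The rule found 88 probe sets for 82 genes, of 33793 probe sets and 22180 singly named genes on the array. They comprised 22 Mmp, 33 Adam, 23 Adamts and Adamtsl and 4 Timp genes. Another 3 probe sets that name a member together with a second gene were not used.

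These enzymes hold a zinc ion at the active site and act outside the cell or at its surface. Matrix metalloproteases are mostly secreted as inactive precursors and together cleave collagens, proteoglycans and adhesion proteins. ADAM proteases sit in the membrane and shed growth factors, cytokines and receptors from it, whereas ADAMTS proteases are secreted and cut proteoglycans or trim procollagens. TIMPs bind and block the active enzymes. In skin, fibroblasts and keratinocytes both make metalloproteases, and the family is best known there from wound closure and remodelling of the dermis.

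Gene expression was measured on 1 array for a skin model built from cells of an Itih5 knockout mouse and on 1 array for a model from a wildtype control, both marked as day 7 in their titles. Each model combined fibroblasts and keratinocytes grown from the skin of untreated adult animals and passaged serially. The kind of Itih5 deletion, the number of mice behind each culture and their exact age were not given by the labels. ITIH5 is an inter-alpha-trypsin inhibitor heavy chain, and the series addresses it as a stabilizer of hyaluronan in skin. Its 1 probe set read 30.4 on the knockout and 29.8 on the wildtype array, below the expression threshold in both, and so does not check the labels.

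Values are array intensities on a linear scale whose decimal point, lost in the deposited table, was restored. Expressed means that at least one of a gene's values reached 47.4, the median over all probe sets. Differences are the log2 intensity of the knockout minus that of the wildtype model, and pairs of intensities name the knockout model first. With 1 array per model there is no replicate error and no test, the number of arrays limits the precision, and genotype cannot be told apart from any other difference between the 2 cultures or arrays. Intensities of different genes come from different probes and are not compared with each other. A summed intensity of a list is therefore carried by its brightest probe sets.

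Of the metalloprotease genes with a restored point, those at least 2-fold apart were mostly higher in the knockout model. Adam19, Mmp19, Mmp9, Adamts15, Adamts7 and Mmp23 were higher by 2-fold or more, and Adam28 and Mmp13 lower. These 6 higher and 2 lower genes were counted among 36 expressed members with a restored point, which is 16.7% and 5.56% of them. The same sizes were reached upward by 485 (3.86%) and downward by 421 (3.35%) of all 12556 expressed genes whose point was restored. The share of higher members was thus above that of all genes, and the share of lower members rests on 2 genes. The other 28 expressed members with a restored point were under 2-fold. A further 7 members, whose point stayed undecided, were at least 2-fold apart at every possible place, but their direction is unknown and they are in neither count. In all, 24 of the 36 were above 0 and 12 below, with a median of 0.18 against 0.04 for all expressed genes. In such arrays of mixed cells, fewer cells of a type and less RNA per cell cannot be told apart.

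None of the 8 genes at least 2-fold apart depended on where the point was placed. For 7 of them 1 place was possible on each array, and Mmp23 was at least 2-fold higher at both of its possible places. All 8 reached the threshold on both arrays. Across the 36 members, 34 did so, and Adamts3 and Adamtsl3 reached it on 1 array. Over the 28 members with 1 possible place, 5 were at least 2-fold higher and 2 lower.

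**Figure D1:**
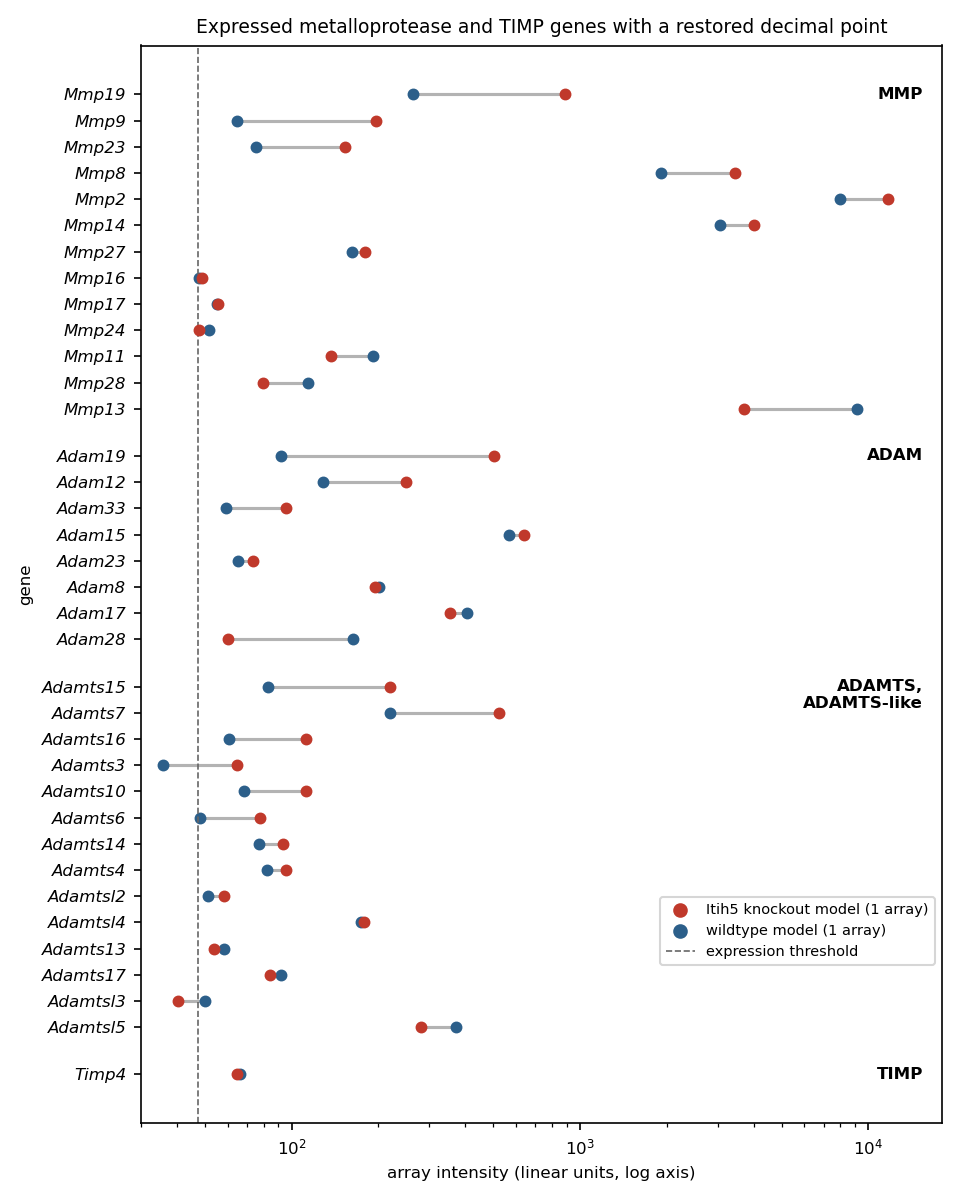
Array intensities of the 36 expressed members with a restored point, on a log axis, with the knockout model in red, the wildtype model in blue and a line joining the 2 arrays of a gene. Within each family genes run from the highest to the lowest log2 difference, from Mmp19 to Mmp13, Adam19 to Adam28 and Adamts15 to Adamtsl5.

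Among collagenases, which cut fibrillar collagen, Mmp13 and Mmp8 went in opposite directions. Mmp13 (probe set 17514482, Entrez 17386), the main interstitial collagenase of rodents, was 2.47-fold lower, at 3713 in the knockout model against 9158 in the wildtype model. Mmp8 (probe set 17514553, Entrez 17394), the collagenase first known from neutrophils, read 3456 against 1916, 1.80-fold higher with a probability of 0.998 for its place. At its other possible place Mmp8 would be 5.54-fold lower. The rodent counterparts of the human interstitial collagenase, Mmp1a and Mmp1b, were below the threshold in both models. Mmp1a read 23.9 against 23.99 at its likeliest place and Mmp1b 26.8 against 29.9.

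Both gelatinases, which digest denatured collagen and basement membrane collagen, read higher in the knockout model. Mmp9 (probe set 17379606, Entrez 17395) read 197 against 64.6, 3.05-fold higher. Mmp2, the gelatinase of fibroblasts, read 11734 against 7959, which is 1.47-fold. Mmp14, the membrane-bound enzyme that activates the Mmp2 precursor, read 3997 against 3065, 1.30-fold higher. Mmp9 was therefore the 1 gelatinase past 2-fold.

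The other membrane-type genes were close to equal near the threshold. Mmp16 read 48.8 against 47.8, Mmp17 55.4 against 54.9 and Mmp24 47.7 against 51.8, and Mmp25 was below the threshold with 41.4 against 37.9. The place of Mmp24 had a probability of 0.999, and at its other possible place it would be 9.21-fold higher. Of the stromelysins, Mmp3 and Mmp10 had an undecided point. Mmp11, a stromelysin that is activated inside the cell by furin, read 136 against 192 on one probe set and 149 against 166 on the other, lower on both and under 2-fold. The matrilysin Mmp7 was below the threshold.

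Among the remaining Mmp genes, Mmp19 (probe set 17238558, Entrez 58223), a protease of basement membrane proteins, was 3.35-fold higher, at 886 in the knockout model against 264 in the wildtype model. This was the largest difference of an Mmp gene with a restored point. Mmp23 (probe set 17433815, Entrez 26561), a membrane-anchored member released by cleavage, read 154 against 75.3, 2.04-fold higher with a probability of 0.993. Mmp28, or epilysin, an enzyme of epithelia, read 79.6 against 114, 1.43-fold lower. Mmp27 differed little, with 179 against 162. Mmp12, the macrophage elastase, was below the threshold with 43.1 against 35.3, as were Mmp20 and Mmp21.

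**Figure D2:**
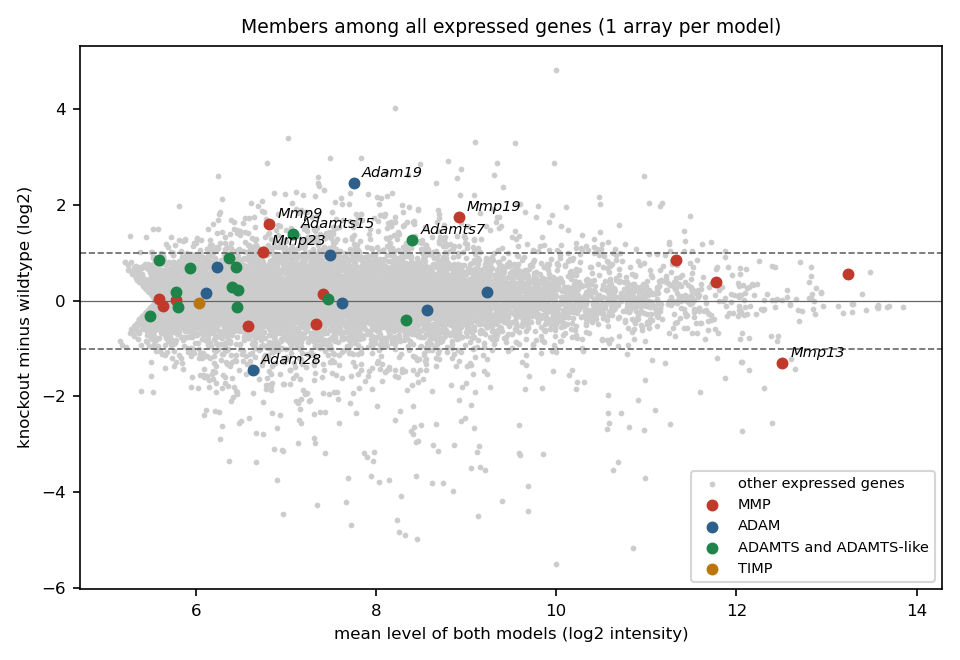
Log2 difference of the knockout minus the wildtype model against the mean log2 intensity of both, for 12556 expressed genes in grey and the 36 members in colour by family. Dashed lines mark 2-fold, and the 8 named genes lie past them, 6 above and 2 below.

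Adam19 (probe set 17248754, Entrez 11492), a membrane protease that sheds neuregulins, had the largest difference of any member with a restored point. It was 5.49-fold higher, at 505 in the knockout model against 92.0 in the wildtype model, which ranked 23 of 12556 expressed genes from the highest difference. A second probe set of the gene also read higher, with 80.6 against 42.1, but its wildtype value was below the threshold. The log2 differences of the probe sets were 2.46 and 0.94. The place of the second probe set had a probability of 0.987, and at its other possible place that probe set would be 19.1-fold higher. The direction was thus shared at either place and the size was not.

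Adam28 (probe set 17308099, Entrez 13522), a protease of lymphocytes and some epithelia, went the other way, with 60.0 against 163, 2.72-fold lower. It lay at the lowest difference of all members with a restored point, -1.44. Adam12, a protease of growing mesenchyme related to Adam19, read 249.96 against 129, 1.94-fold higher with a probability of 0.954 for its place. At its other possible place Adam12 would be 5.14-fold lower.

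The ADAM genes of general shedding differed little where they could be read. Adam17, which releases tumour necrosis factor and epidermal growth factor receptor ligands, read 353 against 406. Its place had a probability of 0.998, and at the other possible place Adam17 would be 11.5-fold lower. Adam15, which also binds integrins, read 638 against 566 on one probe set and 178 against 186 on the other. Adam8, a protease of leukocytes and activated epithelia, read 195 against 201. Adam33, a mesenchymal member, was higher with 95.9 against 59.1, 1.62-fold, and Adam23, which lacks protease activity, read 73.2 against 65.2. Adam11 and Adam22, also without activity, were below the threshold. Adam9 and Adam10 had an undecided point.

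The 21 Adam genes known mainly from testis and sperm were treated as unexpressed. The 20 with a restored point ran from 20.3 to 60.4 with a median of 26.0, where the 5th percentile of all restored intensities was 21.4. Adam1a, with 47.0 against 60.4, and Adam4, with 44.1 against 60.3, passed the threshold by their wildtype value. None of the 20 was 2-fold apart at the place used. Some were placed by probability, and at the other possible place Adam1a would be 7.78-fold and Adam34l 12.9-fold higher.

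Both ADAMTS genes with a restored point that passed 2-fold were higher in the knockout model, and 4 more, described below with the undecided genes, passed it in an unknown direction. Adamts15 (probe set 17525224, Entrez 235130), which cuts the proteoglycans aggrecan and versican, read 219 against 83.0, 2.64-fold higher. Adamts7 (probe set 17520254, Entrez 108153), which cuts cartilage oligomeric matrix protein, read 526 against 219, 2.41-fold higher. Expressed Adamts and Adamtsl genes with a restored point numbered 14. Past 2-fold, 2 of them lay upward and 0 downward, and 10 were above 0, with a median of 0.25.

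Several other secreted Adamts genes lay below 2-fold on the same side. Adamts16 read 112 against 60.8, 1.85-fold higher. Adamts10, which binds fibrillin microfibrils, read 112 against 68.5, 1.63-fold, and its relative Adamts6 77.6 against 48.1, 1.61-fold. These 3 values were on the higher side without reaching the size that was counted.

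The procollagen propeptidases Adamts3 and Adamts14 remove the amino-terminal extension of fibrillar procollagens. Adamts3 read 64.6 in the knockout model and 35.9, below the threshold, in the wildtype model. Adamts14 read 93.4 against 76.9 on one probe set, and a second was below the threshold. Adamts4, a proteoglycan-cutting enzyme, read 95.5 against 82.0. Adamts13, which trims von Willebrand factor, read 53.6 against 58.5, and Adamts17 83.9 against 92.2. Adamts8, Adamts18, Adamts19 and Adamts20 were below the threshold in both models.

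ADAMTS-like proteins share the ancillary domains of the family but have no protease domain. Adamtsl5 read 281 against 371, 1.32-fold lower. Adamtsl4, a fibrillin-binding protein, was equal within 1.02-fold, with 178 against 175 and a probability of 0.996 for its place. At its other possible place Adamtsl4 would be 9.79-fold lower. Adamtsl2 read 58.4 against 51.4, Adamtsl3 40.5 against 50.2, and Adamtsl1 was below the threshold. None of the 5 was at least 2-fold apart.

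Of the inhibitors, 1 expressed gene had a restored point. Timp4 read 64.6 against 66.2, close to equal at 1.03-fold, with a probability of 0.9985 for its place. At its other possible places Timp4 would be 10.3-fold or 103-fold lower. Timp3, the inhibitor bound to the matrix, was below the threshold with 31.4 against 40.3. Timp1 and Timp2 were well above the threshold at each possible place, but their points were undecided, so neither has a direction.

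The point stayed undecided for 11 of the 82 member genes, 10 of them expressed at the likeliest place. For each of the 11 the possible places gave opposite directions, so none has a direction here. Timp1 was fixed at 3874 in the knockout model and read 5956 or 596 in the wildtype model. Timp2 was fixed at 2939 in the wildtype model and read 5261 or 526 in the knockout model. The likeliest places, with probabilities of 0.842 and 0.844, put Timp1 at 1.54-fold lower and Timp2 at 1.79-fold higher.

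Both stromelysins that cleave proteoglycans and activate other precursors were in this group. Mmp3 was fixed at 2354 in the wildtype model and read 598 or 5977 in the knockout model, and the likeliest place had a probability of only 0.533. Mmp10 was fixed at 524 in the knockout model and read 166 or 1662 in the wildtype model. Mmp3 was at least 2.54-fold and Mmp10 at least 3.15-fold apart at either place, so each differed between the arrays by more than 2-fold in a direction that is unknown.

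Adam9, a widely expressed sheddase, was fixed at 3331 in the knockout model with 1221 or 12205 in the wildtype model. Adam10, the sheddase of Notch and cadherins, had 6 possible pairs, of which the likeliest was 1050 against 896, with a probability of 0.919. Adamts12 was fixed at 299 in the knockout model with 136 or 1361 in the wildtype model. Like Mmp3 and Mmp10, Adam9 and Adamts12 were more than 2-fold apart at every possible place.

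Of the proteoglycan-cutting enzymes, Adamts1, Adamts5 and Adamts9 were undecided. Adamts5, an aggrecanase that also cuts versican, was fixed at 160 in the wildtype model with 61.6 or 616 in the knockout model. Adamts9 was fixed at 87.3 in the wildtype model with 28.6 or 286 in the knockout model. Adamts1 had 4 possible pairs, from 235 or 2347 in the knockout and 94.7 or 947 in the wildtype model. All 3 were more than 2-fold apart at every possible place, again without a direction. Genes that differ are more often left undecided than genes that do not, so the counts of 6 and 2 leave out members that differed.

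**Figure D3:**
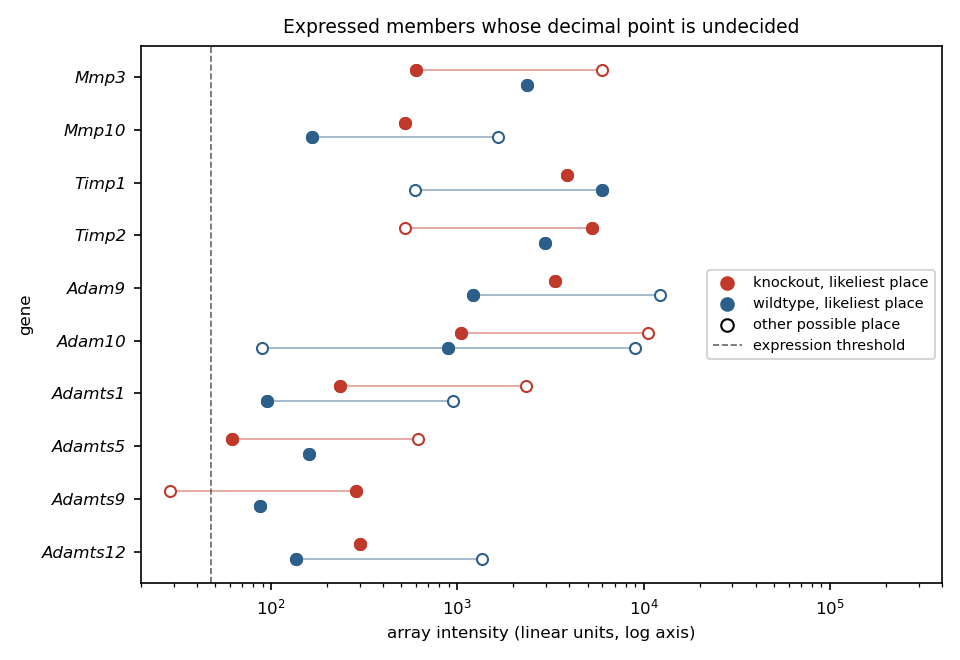
Possible intensities, on a log axis, of the 10 expressed members with an undecided point, in the knockout model (red) and the wildtype model (blue), with the likeliest place filled and other places open. For every gene the open and filled points of one model lie on both sides of a point of the other.

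The remaining 15 members were below the threshold in both models and ran from 23.9 to 43.1, with a median of 35.8. They were Mmp1a, Mmp1b, Mmp7, Mmp12, Mmp20, Mmp21, Mmp25, Adam11, Adam22, Adamts8, Adamts18, Adamts19, Adamts20, Adamtsl1 and Timp3. Their log2 differences lay between -0.36 and 0.29, and none was 2-fold apart.

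Genes for 10 Mmp members lie side by side on mouse chromosome 9, with 0 other protein-coding genes between them in the RefSeq annotation of GRCm38.p6. In chromosome order they are Mmp13, Mmp12, Mmp1b, Mmp3, Mmp1a, Mmp10, Mmp8, Mmp27, Mmp20 and Mmp7. Differences varied along the cluster. Mmp13 at one end was 2.47-fold lower, Mmp8 was 1.80-fold higher, Mmp27 beside it was close to equal, and 5 genes of the cluster were below the threshold in both models.

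**Figure D4:**
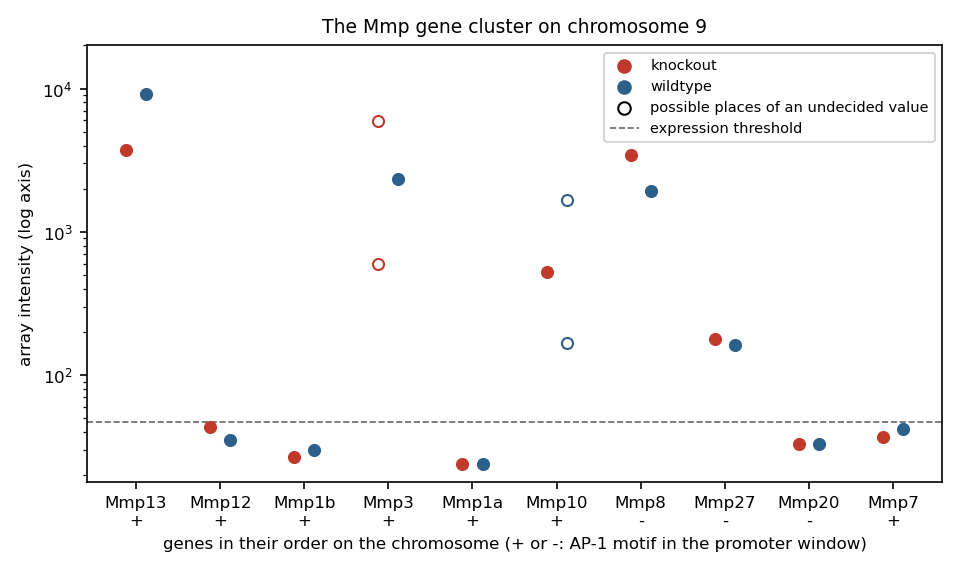
Array intensities, on a log axis, of the 10 neighbouring Mmp genes in chromosome order, with the knockout model in red and the wildtype model in blue. Open circles are the possible values of Mmp3 in the knockout and of Mmp10 in the wildtype model, and the sign under each name says whether the promoter window holds the AP-1 motif. Of the 7 genes marked +, 4 lie below the dashed threshold.

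The promoters of this cluster are known for the AP-1 site, bound by Jun and Fos factors. The motif TGAGTCA, on either strand, was searched in RefSeq windows of 300 bases, from 250 before to 50 after the transcription start. Windows were found for 51 of the 82 member genes. The motif lay in 10 of the 51 (19.6%), against 5.95% of all 27025 genes with a window. In the chromosome 9 cluster 7 of 10 genes held it (Mmp13, Mmp12, Mmp1b, Mmp3, Mmp1a, Mmp10 and Mmp7), and the TATA box motif TATAAA, on either strand, was in 9 of 10, against 15.7% of all genes. No match of one motif overlapped a match of the other in these windows. Adam19 and the testis-type genes Adam1b and Adam29 were the other 3 members with the AP-1 motif. The share of 19.6% thus came mostly from the cluster and is not a trait of the members at large. None of the 13 Adamts and Adamtsl genes or 4 Timp genes with a window held these letters there.

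The windows of 4 of the 5 expressed cluster genes, Mmp13, Mmp3, Mmp10 and Mmp8, and that of Adam19, the member with the largest difference at a restored point, are shown to set genes with and without the motif side by side. Each is the strand of the gene, 5′ to 3′, in GRCm38.p6, with the AP-1 motif, read on either strand, in capitals. Mmp13 lies at chr9:7272264-7272563, Mmp3 at chr9:7445572-7445871, Mmp10 at chr9:7502092-7502391 and Mmp8 at chr9:7558179-7558478, all on the plus strand. The other expressed cluster gene, Mmp27, differed little and held no match, and its window is not shown. For Adam19, which has 3 windows, the one with the motif is chr11:46055734-46056033, also plus strand.
Mmp13: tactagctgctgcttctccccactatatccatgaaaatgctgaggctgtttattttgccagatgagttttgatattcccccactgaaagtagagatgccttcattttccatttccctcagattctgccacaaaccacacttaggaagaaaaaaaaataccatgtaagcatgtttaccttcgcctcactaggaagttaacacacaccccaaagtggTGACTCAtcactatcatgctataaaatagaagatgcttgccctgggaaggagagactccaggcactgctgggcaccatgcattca
Mmp3: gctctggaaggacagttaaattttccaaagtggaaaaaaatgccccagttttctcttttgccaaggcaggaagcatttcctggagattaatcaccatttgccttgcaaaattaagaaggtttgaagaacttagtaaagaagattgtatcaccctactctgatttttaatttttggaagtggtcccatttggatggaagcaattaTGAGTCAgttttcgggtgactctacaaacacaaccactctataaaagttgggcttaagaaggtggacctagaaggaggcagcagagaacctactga
Mmp10: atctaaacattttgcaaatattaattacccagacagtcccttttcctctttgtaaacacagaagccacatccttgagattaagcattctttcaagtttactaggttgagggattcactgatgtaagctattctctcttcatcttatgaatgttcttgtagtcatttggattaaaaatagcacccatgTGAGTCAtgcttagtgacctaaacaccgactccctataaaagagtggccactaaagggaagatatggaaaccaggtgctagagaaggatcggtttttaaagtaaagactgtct
Mmp8: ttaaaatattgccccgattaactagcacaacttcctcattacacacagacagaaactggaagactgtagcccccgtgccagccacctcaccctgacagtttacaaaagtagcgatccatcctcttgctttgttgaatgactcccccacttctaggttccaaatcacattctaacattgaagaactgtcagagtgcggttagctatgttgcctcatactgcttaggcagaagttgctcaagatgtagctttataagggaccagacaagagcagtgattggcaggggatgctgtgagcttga
Adam19: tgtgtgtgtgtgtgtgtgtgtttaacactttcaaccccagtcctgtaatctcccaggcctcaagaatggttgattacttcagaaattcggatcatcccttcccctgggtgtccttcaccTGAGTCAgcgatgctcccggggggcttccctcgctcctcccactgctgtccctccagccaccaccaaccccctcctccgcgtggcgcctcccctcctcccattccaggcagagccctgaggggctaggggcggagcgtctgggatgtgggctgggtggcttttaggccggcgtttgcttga

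The first base of the motif lay 35 bases before the start in Mmp13, 46 in Mmp3, 63 in Mmp10 and 131 in Adam19. Mmp13, lower in the knockout model, and Adam19, higher in it, both held the motif, and Mmp8, higher in it, did not. A match is a description of the letters only. Of the transcription factors listed for metalloprotease promoters, 9 were expressed and restored, and 0 of these reached 2-fold in either direction. Among all expressed genes 3.86% did so upward and 3.35% downward. The AP-1 genes Fos (67.8 against 115), Fosl2 (699 against 1082), Junb (908 against 1294) and Jund (163 against 193) read lower and Fosb (51.3, against 44.8 below the threshold) higher, all under 2-fold. Junb was placed with a probability of 0.965, and its log2 differences at other possible places were -3.83 and 2.81. Jun had an undecided point.

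Other proteases and partners of the pathway were read from lists. Counts of these and of the marker lists below stand beside 3.86% higher and 3.35% lower of all expressed genes. Some list genes were placed by a probability of at least 0.95. Among them Lrp1, Cdh1, Cd44 and Epcam would change direction at another possible place. Activators, inhibitors and partners of metalloproteases had 15 expressed genes, of which 1 passed 2-fold upward and 1 downward, and their median was 0.14. Pcsk6, a proprotein convertase that removes the inhibitory prodomain of its targets, read 51.2 against 258, 5.05-fold lower. Sparc, a matricellular protein of fibroblasts, read 2206 against 965, 2.29-fold higher. Furin, the convertase that activates membrane-type MMPs and ADAMs, was close to equal with 671 against 613. Reck, a membrane-anchored inhibitor of MMPs, read 116 against 77.7, and Lrp1, which clears metalloproteases and TIMPs from outside the cell, 3114 against 1577, both under 2-fold. Bsg, the inducer named EMMPRIN, read 4115 against 3738.

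Other extracellular metalloproteases and their enhancers had 12 expressed genes, of which 2 passed 2-fold upward and 0 downward, and their median was 0.65. Pappa2, which cuts insulin-like growth factor binding proteins, read 188 against 92.4, and Pcolce, the enhancer of procollagen C-proteinase, 537 against 255. The place of Pappa2 had a probability of 0.998, and at its other possible place its log2 difference would be -2.30. Bmp1, that proteinase, read 2183 against 1207, 1.81-fold. Of the 3 expressed plasminogen activation genes with a restored point, 0 were 2-fold apart, among them Plat, the tissue activator, with 372 against 463. Serpinb2, an inhibitor of plasminogen activators, was at least 2.16-fold higher at both of its possible places, and Plau, the urokinase gene, had an undecided point. Plau, the thrombin receptor gene F2r and, of the other metalloproteases, Anpep were at least 2-fold apart at every possible place, with opposite directions among the places.

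**Figure D5:**
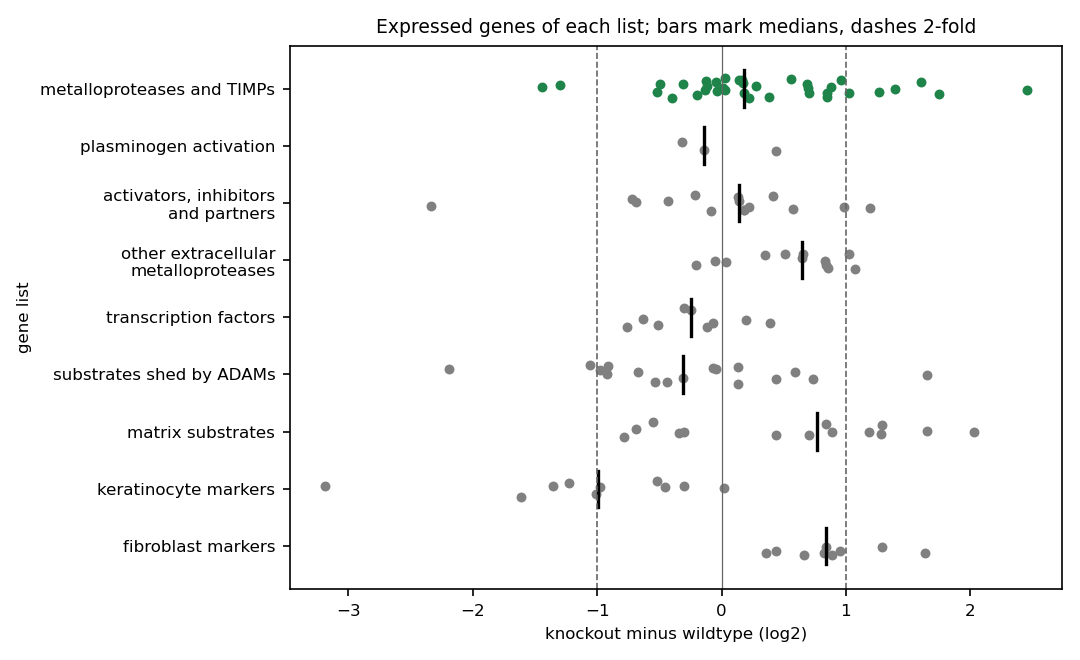
Log2 differences, knockout minus wildtype, of expressed genes with a restored point in each list, with 1 point per gene and a bar at the median. The members have a median of 0.18, keratinocyte markers of -0.99 and fibroblast markers of 0.84, and dashed lines mark 2-fold.

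Markers of the cell types in the models also differed. Expressed and restored keratinocyte markers numbered 10, of which 5 passed 2-fold downward and 0 upward, and their summed intensity was 8580 in the knockout model against 20471 in the wildtype model. Krt14 and Dsg3 made up most of that sum on both arrays. Lor, a protein of the cornified envelope, was 9.11-fold lower, at 57.3 against 522. The keratin of suprabasal cells Krt10 read 333 against 850 and the desmosomal cadherin gene Dsg3 2150 against 6581. The keratin genes of basal cells read 4076 against 9538 for Krt14 and 63.2 against 127 for Krt15. Under 2-fold, Ivl was close to equal (143 against 141), and Epcam (954 against 1173), Cdh1, Krt1 and Flg read lower. Krt1 and Flg reached the threshold only on the wildtype array. All 9 expressed fibroblast markers with a restored point were above 0, 2 of them at least 2-fold, and the summed intensity of the 11 restored markers was 14065 against 7674. The 2 were Col1a1 (2145 against 876) and Twist2 (495 against 160), and Pdgfrb, undecided, was at least 2-fold apart in an unknown direction. The fibroblast markers Dcn (probability 0.959) and Thy1 (0.976) would be lower at another possible place. Vim (6479 against 3665) made up the largest part of the fibroblast sum. Lum (24.6 against 30.9) and Fap (29.0 against 36.0) were below the threshold in both models and read lower in the knockout model. The part of these shifts in the metalloprotease differences was not tested.

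Markers of leukocytes, another possible source of metalloproteases, were mostly below the threshold. Of 8 restored macrophage markers 3 were expressed and 0 were 2-fold apart, with a summed intensity of 1690 against 1910. Of the expressed ones, Cd68 (861 against 1161) and Lyz2 (151 against 203) read lower and Mertk (507 against 361) higher. Adgre1, Csf1r, Itgam and Cd163 were below the threshold in both models. Of 9 neutrophil markers, listed beside Mmp8 and Mmp9, 3 were expressed, with a summed intensity of 544 against 852. Ly6g, Mpo, Elane and Camp were below the threshold in both, and Ltf, also made by epithelia, read 169 against 403, the 1 of them past 2-fold. Cxcr2 (112 against 192) and Prtn3 (59.0 against 59.0) were the other expressed neutrophil markers.

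Of 4 expressed adipocyte markers, Fabp4 read 4974 against 816, Cd36 83.9 against 33.5, Lpl 84.7 against 42.3 and Plin1 74.8 against 62.6. Fabp4 thus made up most of the summed intensity of the 6 adipocyte markers, 5269 against 1015, while Adipoq (28.7 against 30.4) and Lep (22.8 against 30.3) were below the threshold in both models. Of the melanocyte markers, Mlana read 705 against 109 and Mitf 464 against 215, and these carried most of the summed 1348 against 511. Tyr and Dct were below the threshold in both models, and Pmel and Sox10 were under 2-fold. Of the endothelial markers Kdr read 87.4 against 36.1, Vwf was close to equal, and Pecam1, Cdh5, Tek and Emcn were below the threshold in both, with a sum of 272 against 235. Cd36, Lpl and Kdr passed the threshold only through the knockout array, so that their reading at least 2-fold higher is shaped by that filter. The part of all these markers in the metalloprotease results was not tested.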

How the data were processed

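RNA of 1 knockout and 1 wildtype skin model was amplified to sense-strand cDNA, labelled with biotin and hybridised to 1 Affymetrix array each, per the labels' protocols. The deposited values are probe set intensities, with no summary or normalization method stated in the labels. The decimal point was missing from 67457 of 67586 values. A place was possible if the resulting number, between 18 and 20000, was the shortest form of a single-precision number and equalled 2 raised to a single-precision exponent. On both arrays 62.5% of probe sets had 1 such place. For the others, 25 rounds of expectation maximisation over level and difference gave each pair a probability, and those of at least 0.95 were kept, which restored 31907 probe sets (94.4%), with 47.8 expected to be misplaced. Differences of 2-fold or more are restored less often than smaller ones. A difference near a shift of the point can be hidden where several places are possible. That range and probability were chosen with the values in view. The step was tested on simulated data.

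Gene names come from the platform annotation, with 23328 of 23521 single symbols matched to RefSeq (GRCm38.p6) by Entrez identifier. Where a gene had more than 1 probe set, the restored one with the highest mean stands for it. Every expressed member is named, with expressed genes of other lists that were at least 2-fold apart or touch a result. Members, lists and motifs were chosen with earlier results of these data known. Alternatives covered normalization, the filter, a pseudocount of 16, probe sets, the probability and the fold. Python 3.11.15, numpy 2.4.6, pandas 2.3.3 and scipy 1.17.1 were used. Column medians were 47.1 and 47.6, and no further normalization was applied.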

Additional observations from a re-analysis of the deposited data

How the results depend on the processing

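The counts of 6 members at least 2-fold higher and 2 lower were the same after centring the arrays, quantile normalization, no filter, a filter at the 75th percentile, averaging probe sets, a probability of at least 0.99, or counting testis-type Adam genes, an alternative chosen after seeing the data. The pseudocount and 1 possible place only each gave 5 higher and 2 lower. Taking the likeliest place everywhere gave 11 higher and 4 lower of 46 expressed members, since undecided ones then enter, against 4.93% higher and 4.43% lower of all 13558 genes. Counting from 1.5-fold gave 13 and 2, and counting from 3-fold gave 3 and 0, by construction. With these folds all genes gave 11.8% higher and 8.46% lower at 1.5-fold, and 1.03% and 1.45% at 3-fold. The median difference of the members ranged from 0.08 without a filter to 0.38 with the stricter one. Of 334 values of single genes under alternatives, 1 moved by over 0.25 log2, that of Adam19 as the mean of its probe sets (1.70), while 0 changed sign by such an amount. Most of the 334 could not move. The filter, probability, place and testis-type alternatives change only which genes are counted, and averaging touches only genes with several probe sets. No paired analysis was possible because the design has 1 sample per genotype, so leaving one out was not possible either. Differences of genes close to the background, about 21.4, are compressed.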

Other observations

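Genes for proteins that ADAM proteases shed were not described above. Expressed and restored ones numbered 17, of which 1 passed 2-fold upward and 2 downward, and their median was -0.31. The shares of all expressed genes were 3.86% upward and 3.35% downward. Hbegf, a heparin-binding ligand of the epidermal growth factor receptor, was 4.58-fold lower, at 159 in the knockout model against 726 in the wildtype model, and the Notch ligand gene Jag1 2.08-fold lower, at 872 against 1813. Tnfrsf1b, a receptor of tumour necrosis factor, read 602 against 192, 3.14-fold higher. Tgfa (131 against 247), Cdh1 (725 against 1428) and Cd44 (1291 against 2445) read lower under 2-fold, and Tnfrsf1a was equal within 1.03-fold.

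Matrix substrates had 14 expressed and restored genes, of which 5 passed 2-fold upward and 0 downward, and their median was 0.77. All expressed genes gave 3.86% upward and 3.35% downward. Thbs2, the thrombospondin gene, read 4745 against 2085 and Vcan, the proteoglycan cut by several ADAMTS proteases, 653 against 269. The others were Fn1 (2910 against 712), Col1a1 and Col4a2 (576 against 183). Of the 14 genes 9 were above 0. Under 2-fold, Col17a1 (310 against 535), Lama3 (556 against 895), Lamb3 (305 against 448) and Col7a1 (125 against 154) read lower. Eln (43.9, below the threshold, against 55.6) did so too. Col1a1, Col1a2, Col3a1 and Dcn are also fibroblast markers, so the 2 lists overlap. Thbs1 and Col4a1, undecided, were at least 2-fold apart at every possible place without a known direction. Acan and Comp, known substrates of Adamts15 and Adamts7, were below the threshold in both models, with Acan at 29.8 against 31.2 and Comp at 38.2 against 40.7.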
